A study of Mus musculus with 6 samples.

Results

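The 9 genes described here make, carry, sense or clear retinoic acid: Rdh10, Dhrs3, Aldh1a1, Aldh1a2, Aldh1a3, Crabp2, Cyp26b1, Rarb and Rarg. They were found by symbol among the 55291 genes of the count tables, and all 9 were found. They were chosen by their place in the pathway and on the measured values of these same libraries, among them the Aldh1a3 counts of both Gpr125+ populations. Their levels and differences are therefore given as a description. Where genes called by a tool are named below, this is not read as a test of that gene. Of the 9, 7 passed the filter on low counts (17268 of all 55291 genes did). Cyp26b1 and Rarb did not.

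RNA was measured in 6 libraries of cells sorted from the abdominal mammary glands of 6-week-old Adgra3-lz/+ mice, which carry a normal allele of Adgra3, the gene of the adhesion receptor Gpr125, and an allele in which lacZ replaces part of it and yields a Gpr125-β-galactosidase fusion. Each group had 2 libraries, and glands of 5 mice were pooled for each. The labels do not say whether the libraries of a group came from separate preparations. The groups were Gpr125-negative cells, TEB-distal Gpr125+ cells from the part of the gland that holds the terminal end buds (TEBs, the growing tips of pubertal ducts), and nipple-proximal Gpr125+ cells from the mature ducts. All were CD49f-high, which enriches for basal cells, had CD31-, CD45- and Ter119-positive cells removed, and were split by fluorescence of the β-galactosidase substrate FDG. None of the libraries came from wild-type mice, the genotype was the same in every group, and the labels give no region for the Gpr125-negative cells. The libraries are called negative 1 and 2, TEB 1 and 2, and nipple 1 and 2 below, and values are given in that order.

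Retinol taken up by a cell is oxidized to retinaldehyde by Rdh10, a step that Dhrs3 reverses, and retinaldehyde is oxidized irreversibly to retinoic acid by Aldh1a1, Aldh1a2 or Aldh1a3. Crabp2 carries retinoic acid to the nucleus, where receptors of the RAR family, among them Rarb and Rarg, pair with RXR receptors on DNA, and Cyp26b1 degrades retinoic acid. Rarb, Cyp26a1 and Dhrs3 are textbook targets whose transcription retinoic acid raises, and in mammary epithelium Aldh1a3 is known mainly from luminal progenitor cells.

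The sequence by which Rarb responds to retinoic acid is shown because it is the classical example of how the pathway reads out. It is a direct repeat of the receptor half-site with a spacing of 5 bases. The stretch below is upstream of the Rarb start site in the RefSeq promoter window (GRCm38.p6, chr14:16575477-16575596, minus strand, written 5′ to 3′). Capitals mark the repeat, which runs from base -53 to base -37 relative to the start site.
Rarb: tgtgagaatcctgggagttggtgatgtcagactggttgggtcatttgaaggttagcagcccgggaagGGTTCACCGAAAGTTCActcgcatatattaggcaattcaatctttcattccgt
Direct repeats of the same half-site with a spacing of 5, 2 or 1 bases were searched on both strands of the window around each start site. A match was present in 32 (0.0974%), 88 (0.268%) and 73 (0.222%) of 32851 mouse windows, in that order. Windows were held for 6 of the 9 genes, Aldh1a1, Aldh1a2, Dhrs3, Cyp26b1, Rarb and Rarg, and only that of Rarb contained a match, the one in capitals. The windows were short, that of Rarb being chr14:16575427-16575726, and sites farther from a start site were not searched. Windows for Aldh1a3, Rdh10 and Crabp2 were not used here.

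Total counts were between 20134890 and 37296640 per library, and 3 counts, the smallest level read here, corresponded to between 0.0645 and 0.147 CPM (counts scaled to the TMM-adjusted size of each library). This floor covers counting error only. Adgra3 was at 35.7 CPM in negative 1 and 18.6 CPM in negative 2, against 15.0, 4.83, 19.2 and 12.3 CPM in the Gpr125+ libraries. Its mean was thus highest in the libraries labelled Gpr125-negative, which goes against the label, although nipple 1 exceeded negative 2. The fluorescence used for the sort cannot be read from these counts. The Gpr125-negative replicates were the least alike of the 15 pairs of libraries, with a correlation of log2 CPM of 0.733, against 0.791 for the TEB-distal and 0.933 for the nipple-proximal pair. All 12 basal and all 8 luminal epithelial marker genes had more than 3 counts in every library. Summed levels of 12 endothelial markers were 1377 and 848 CPM in the libraries labelled Gpr125-negative and between 19.7 and 241 CPM in the other 4, and Fabp4, an adipocyte and endothelial gene, was at 672 and 631 CPM against 1.51 to 23.5 CPM. Mitochondrial transcripts took between 0.301% and 3.15% of the counts.

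**Figure D1:**
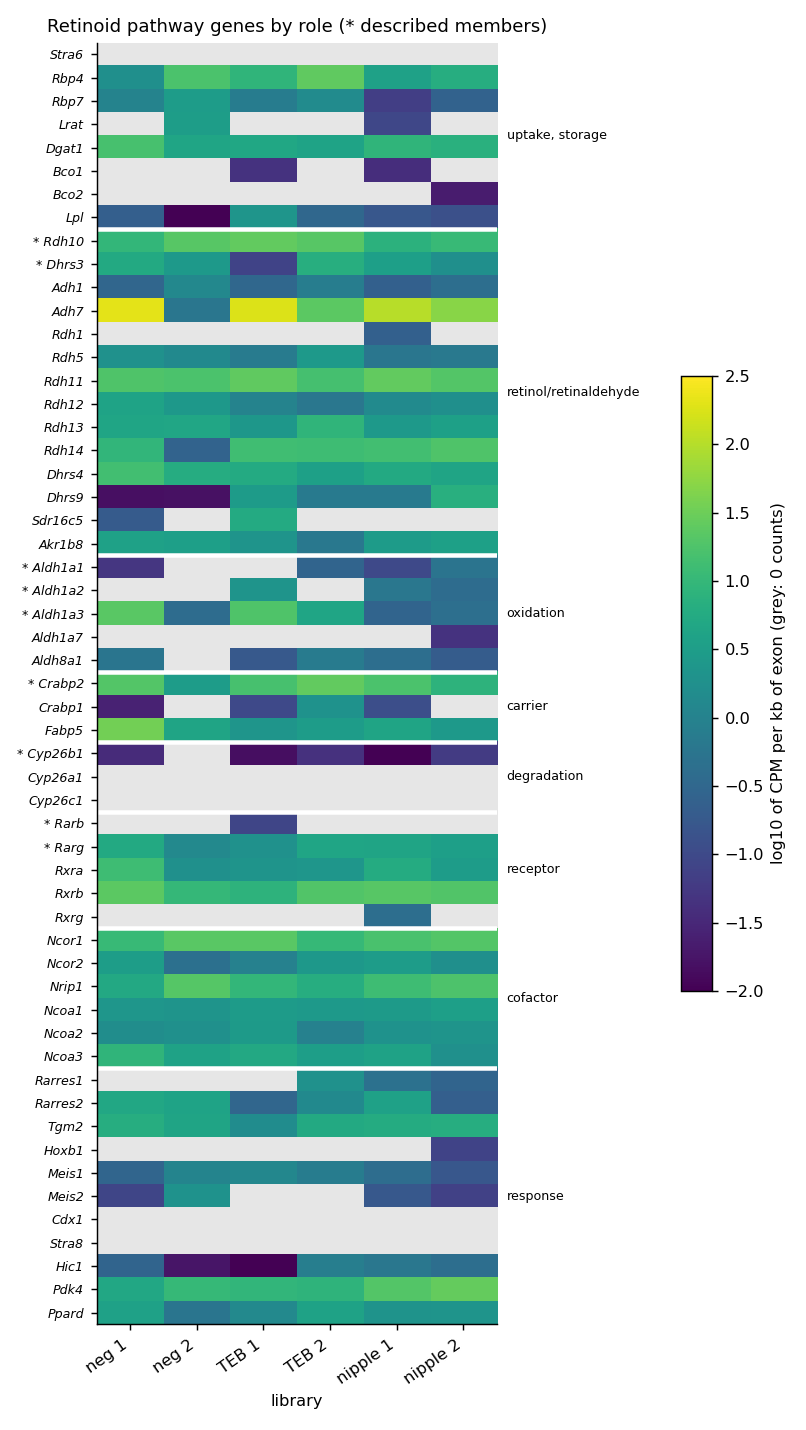
Level of the 9 described genes (asterisks) and 46 other retinoid pathway genes, grouped by role, in each of the 6 libraries, as log10 of CPM per kb of exon, with 0 counts in grey. Rdh10, Crabp2 and Rarg are seen in every library, whereas the rows of Cyp26a1 and Cyp26c1 are grey throughout and that of Rarb is grey in 5 of 6 libraries.

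Per kb of exon, so that genes could be set against each other, the mean level over the 6 libraries was highest for Rdh10 (16.2 CPM per kb) and Crabp2 (14.9 CPM per kb). Their ranges of 7.69 to 25.9 and 3.10 to 26.1 CPM per kb overlapped. Aldh1a3 came next with a mean of 7.67 CPM per kb, but its libraries spanned 0.277 to 22.0 CPM per kb, a range that holds those of Rarg (1.32 to 5.35, mean 3.44) and most of that of Dhrs3 (0.0799 to 6.69, mean 3.36). Aldh1a2 (mean 0.517) and Aldh1a1 (mean 0.161) lay lower, and their ranges began at 0. Cyp26b1 (mean 0.0277) and Rarb (mean 0.0148) were lowest. Neighbours in this order overlapped in every case, so that the order of adjacent genes is not fixed by these libraries.

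Rdh10 (GRCm38 chromosome 1, 16105774 to 16133734), whose product makes the retinaldehyde that all the Aldh1a enzymes use, was the steadiest of the synthesis genes, with 3.38-fold between its highest and lowest library. It was at 39.7 and 88.5 CPM in negative 1 and 2, at 107.9 and 90.5 CPM in TEB 1 and 2, and at 32.0 and 45.1 CPM in nipple 1 and 2. Both TEB libraries lay above all the others, although TEB 2 exceeded negative 2 by little and these groups overlapped when the libraries were scaled by DESeq2 size factors. The fitted log2 fold change was 1.36 (standard error 0.68) for TEB-distal against nipple-proximal cells and stayed between 1.13 and 1.62 when any library was left out. It was 0.63 (standard error 0.67) for TEB-distal and -0.73 (standard error 0.67) for nipple-proximal cells against the libraries labelled Gpr125-negative. Both values depended on the reference. The TEB-distal value was 0.03 without negative 1 and 1.31 without negative 2, and the nipple-proximal value was -1.34 and -0.038.

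Dhrs3 (chromosome 4, 144892827 to 144928209), which returns retinaldehyde to retinol, was at 16.0 and 7.99 CPM in negative 1 and 2 and at 10.2 and 5.04 CPM in nipple 1 and 2. It was at 0.234 CPM (6 counts) in TEB 1 and at 19.6 CPM (575 counts) in TEB 2, the lowest and the highest of all 6 libraries, 83.7-fold apart. TEB 1, with almost no Dhrs3, was the library with the highest Rdh10. The groups overlapped in all 3 comparisons. The fitted log2 fold change of TEB-distal against nipple-proximal cells, 0.38 (standard error 1.63), became -5.02 without TEB 2 and 1.42 without TEB 1. Against the libraries labelled Gpr125-negative it was -0.28 (standard error 1.63) for TEB-distal and -0.66 (standard error 1.63) for nipple-proximal cells.

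**Figure D2:**
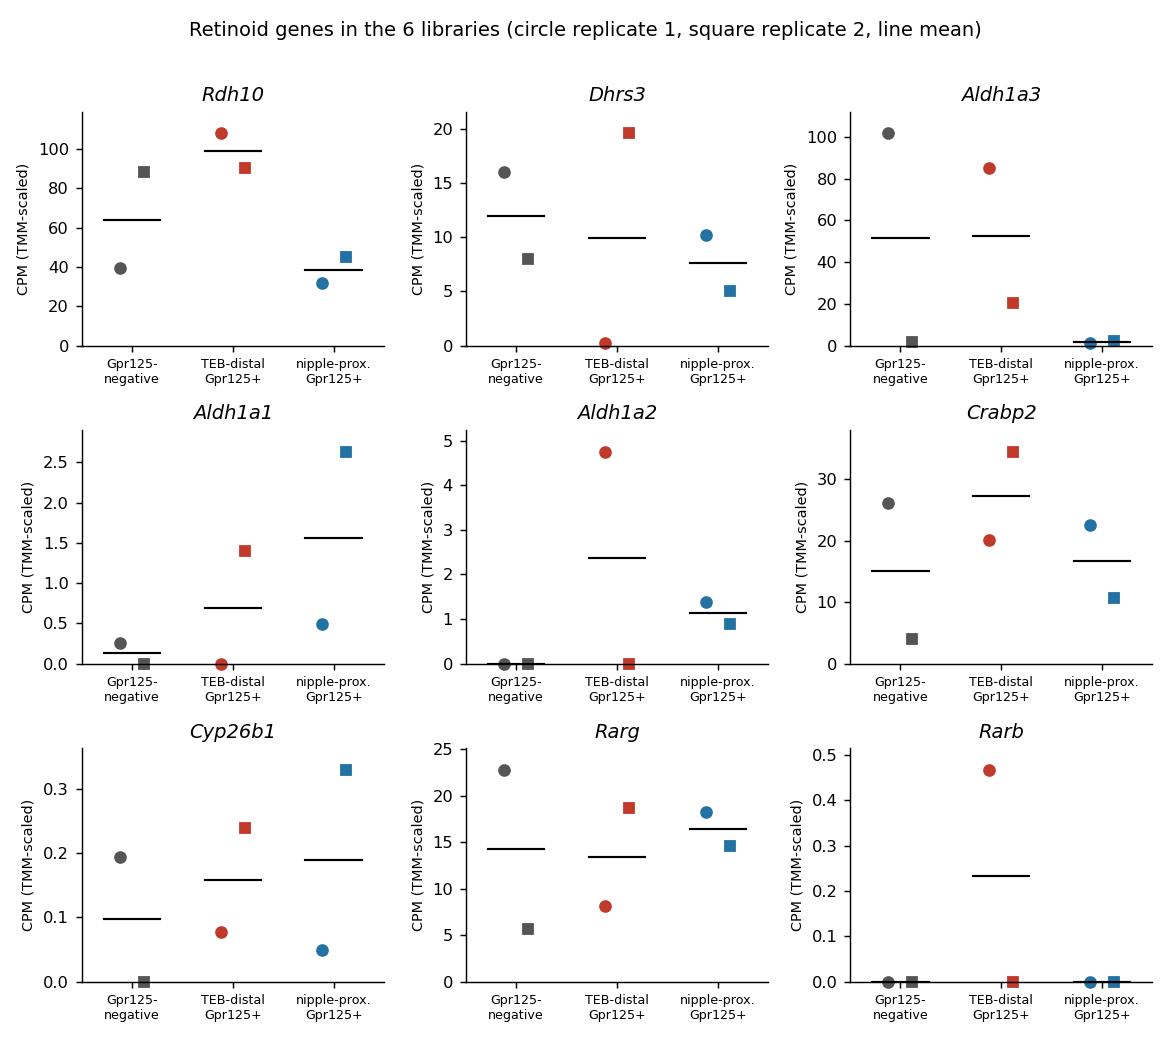
TMM-scaled CPM of each of the 9 genes in the Gpr125-negative, TEB-distal and nipple-proximal libraries; circles are replicate 1, squares replicate 2 and lines the mean of the pair, each panel with its own axis from 0. Rdh10 replicates lie close within the Gpr125+ groups, whereas Aldh1a3 differs 56.7-fold within the Gpr125-negative pair and Dhrs3 83.7-fold within the TEB-distal pair.

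Aldh1a3 (chromosome 7, 66390890 to 66427517) had a 79.7-fold range between its highest and lowest library, which among those of the 9 genes seen in every library was second to that of Dhrs3. It was at 101.7 CPM (4728 counts) in negative 1 and at 1.80 CPM (53 counts) in negative 2. TEB 1 and 2 were at 85.0 and 20.6 CPM (2180 and 604 counts), and nipple 1 and 2 at 1.28 and 2.02 CPM (26 and 43 counts). Both TEB libraries were above both nipple libraries, and the Gpr125-negative pair held the highest library of all and a library within the nipple range. In bulk samples, fewer cells with the transcript and less transcript per cell cannot be told apart.

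Against the libraries labelled Gpr125-negative, the fitted log2 fold change of Aldh1a3 was 0.03 (standard error 1.45) in TEB-distal and -4.97 (standard error 1.73) in nipple-proximal cells, and both turned on negative 1. Without that library they were 4.72 and -0.26, and without negative 2 the nipple-proximal value was -5.94. The nipple libraries overlapped with the Gpr125-negative ones, since nipple 2 (2.02 CPM) lay above negative 2 (1.80 CPM). With DESeq2 size factors they did not overlap. Between both Gpr125+ populations the fitted log2 difference was 4.99 (standard error 1.73), lowest without TEB 1 (3.70) and highest without TEB 2 (5.66).

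Aldh1a1 (chromosome 19, 20492715 to 20643465) and Aldh1a2 (chromosome 9, 71215789 to 71296243), which oxidize the same substrate, were at low levels in all libraries. Aldh1a1 had 12 and 0 counts in negative 1 and 2, 0 and 41 in TEB 1 and 2, and 10 and 56 in nipple 1 and 2, at most 2.64 CPM. Aldh1a2 had 0 and 0, 122 and 0, and 28 and 19 counts in the same order, at most 4.76 CPM. For both genes the nipple libraries were above the Gpr125-negative ones in CPM, and the TEB pair held a library with 0 counts. For Aldh1a1 this rested on scaling, since nipple 1 had 10 counts (0.491 CPM) and negative 1 had 12 (0.258 CPM). Taking 3 counts in each Gpr125-negative library as the floor, mean Aldh1a2 was at least 13.7-fold higher in nipple-proximal and at least 28.6-fold higher in TEB-distal cells, the latter from TEB 1 alone. The log2 fold change of Aldh1a1 was 2.37 (standard error 2.66) and 3.52 (standard error 2.79) for TEB-distal and nipple-proximal cells against the same libraries. Aldh1a1 overlaps C730002L08Rik and Gm6684, and Aldh1a2 overlaps Gm48124, all on the opposite strand. The counts ignored strand, but on neither strand did the annotated transcripts of these partners share a 50-base word with Aldh1a1 or Aldh1a2. Aldh1a1 shares 3.06% of its 50-base words with its paralog Aldh1a7, which had 2 counts in all libraries together. Aldh1a3 shares 1.15% of its 50-base words, 53 of 4601, with 100 other genes.

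The make-up of the Aldh1a group therefore differed between libraries. Per kb of exon, Aldh1a3 took 99.8% and 100% of the summed level of the 3 enzymes in negative 1 and 2, 89.8% and 94.0% in TEB 1 and 2, and 28.1% and 32.1% in nipple 1 and 2. The largest share in nipple 1 was that of Aldh1a2, at 61.8%, and in nipple 2 that of Aldh1a1, at 39.0%. The summed level was 22.1 and 0.389 CPM per kb in negative 1 and 2, 20.5 and 4.74 in TEB 1 and 2, and 0.983 and 1.37 in nipple 1 and 2. The shares of negative 2, nipple 1 and nipple 2 rest on 53, 64 and 118 counts in all.

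**Figure D3:**
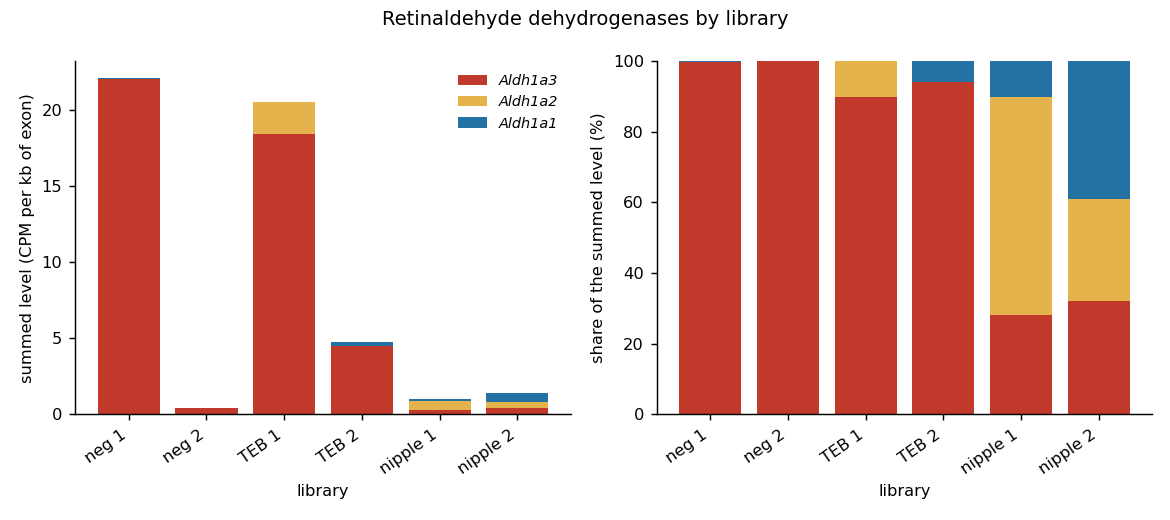
Aldh1a1, Aldh1a2 and Aldh1a3 in each library, stacked, as CPM per kb of exon (left) and as the share of their sum in percent (right). Aldh1a3 takes 89.8% or more of the sum in negative 1 and 2 and TEB 1 and 2, but 28.1% and 32.1% in nipple 1 and 2, where the sum is at most 1.37 CPM per kb.

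Crabp2 (chromosome 3, 87948666 to 87953376), the carrier that hands retinoic acid to its receptors, was at 26.1 and 4.10 CPM in negative 1 and 2, 20.2 and 34.6 CPM in TEB 1 and 2, and 22.6 and 10.7 CPM in nipple 1 and 2. The groups overlapped throughout. Its fitted log2 fold changes were 0.86 (standard error 1.03), 0.14 (1.02) and 0.72 (1.02) for TEB-distal against Gpr125-negative, nipple-proximal against Gpr125-negative and TEB-distal against nipple-proximal cells.

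Rarg (chromosome 15, 102234938 to 102257517), the RAR receptor of the group that was measured in every library, was at 22.8 and 5.62 CPM in negative 1 and 2, 8.15 and 18.6 CPM in TEB 1 and 2, and 18.2 and 14.6 CPM in nipple 1 and 2. Its fitted log2 fold changes, -0.09 (standard error 0.99), 0.21 (0.99) and -0.29 (0.99) in the same 3 comparisons, were smaller than their errors. Rarb (chromosome 14, 16430839 to 16819156), whose promoter is printed above, had 12 counts (0.468 CPM) in TEB 1 and 0 counts in the other 5 libraries. It shares 34.1% of its 50-base words with the overlapping genes Top2b and Gm48162, and the counts did not use strand. How reads of shared sequence were counted is not given in the sources used here. The counts of Rarb, the 0 counts among them, may therefore miss its own reads or hold those of a neighbour.

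Cyp26b1 (chromosome 6, 84571414 to 84593908), which clears retinoic acid, had 9 and 0 counts in negative 1 and 2, 2 and 7 in TEB 1 and 2, and 1 and 7 in nipple 1 and 2, at most 0.330 CPM. With counts this low, differences between the groups were not detectable at this depth. The related Cyp26a1 and Cyp26c1 had 0 counts in all 6 libraries, which allows a level of up to 0.0645 to 0.147 CPM.

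**Figure D4:**
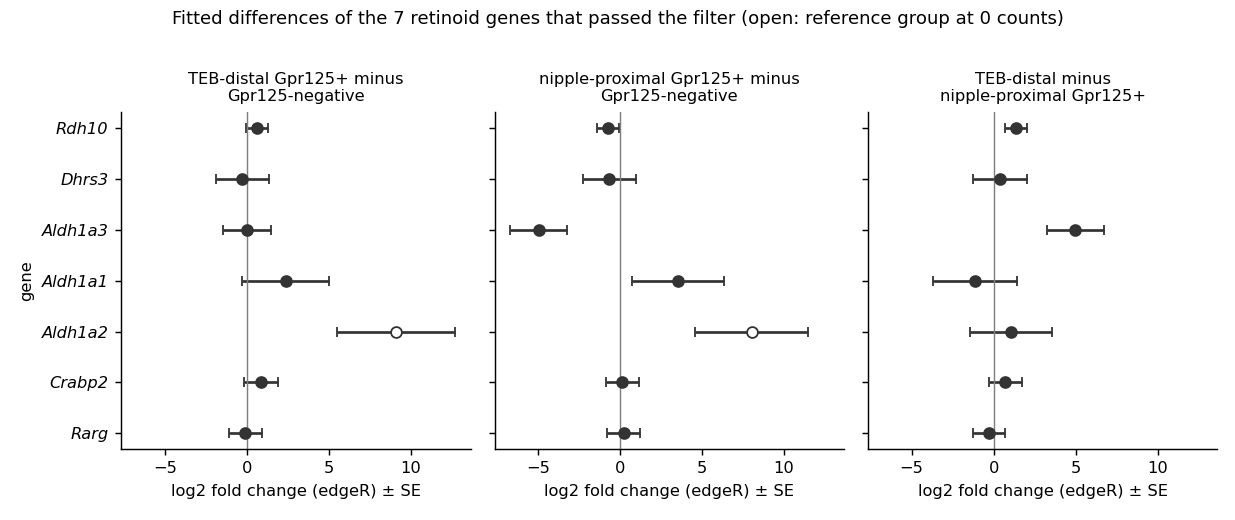
Fitted log2 fold change (edgeR, points) with its standard error (bars) of the 7 genes that passed the filter, in the 3 comparisons; open points mark Aldh1a2 where the reference group had 0 counts, so that the fitted value is no bound. Aldh1a3 lies at 0.03, -4.97 and 4.99, and the values of Rdh10, between -0.73 and 1.36, have the shortest bars.

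Across all genes, edgeR's quasi-likelihood test called 0 of 17268 (0%) in each comparison at an FDR under 0.1 and a 2-fold change, and 0 of the 7 listed genes tested. The lowest adjusted p among them was 0.815, 1 and 1 for TEB-distal against Gpr125-negative, nipple-proximal against Gpr125-negative and TEB-distal against nipple-proximal cells (edgeR, Benjamini-Hochberg). At an unadjusted p under 0.05, 1 of the 7 was counted in each comparison, beside 6.05%, 3.55% and 2.21% of all genes. The gene was Aldh1a2 in the first and Aldh1a3 in the others. DESeq2 on the 4 compared libraries called 0, 1 and 1 of them, beside 4.33%, 2% and 2.26% of all genes with an adjusted p. DESeq2 on all 6 libraries called 1, 1 and 1, beside 5.43%, 1.97% and 0.844%, and its calls were again Aldh1a2 and then Aldh1a3. These contrasts were known when the genes were chosen, so nothing is read from the counts or from the genes named. With 2 libraries against 2, a two-sided exact permutation test cannot give a p below 0.333.

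The libraries did not overlap for 1 of the 7 genes in TEB-distal against Gpr125-negative cells (Rdh10, higher), for 2 in nipple-proximal against Gpr125-negative cells (Aldh1a1 and Aldh1a2, higher) and for 2 in TEB-distal against nipple-proximal cells (Aldh1a3 and Rdh10, higher). That of Aldh1a1 rested on scaling, with 10 counts in nipple 1 and 12 in negative 1. Among all genes tested, 14%, 19.9% and 15.2% were higher with no overlap in these comparisons, and 10%, 10.8% and 18.3% were lower. None of the 7 listed genes was lower with no overlap at the TMM scaling, whereas in nipple-proximal against Gpr125-negative cells Aldh1a3 was with DESeq2 size factors and Rdh10 with total counts. The median log2 fold change of the 7 was 0.63, 0.14 and 0.72, beside 0.03, -0.0032 and 0.06 over all genes tested, and it was the same with Aldh1a2 set at its bounds. Without negative 1 the first of these medians was 2.61.

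The rest of the pathway was followed in a list of 46 genes, of which 34 passed the filter. In TEB-distal against Gpr125-negative cells, nipple-proximal against Gpr125-negative cells and TEB-distal against nipple-proximal cells, edgeR's quasi-likelihood test called 0 of the 34, and its lowest adjusted p was 0.803, 1 and 1. At an unadjusted p under 0.05 it counted 5 (Lrat, Dhrs9, Fabp5, Rarres1 and Meis2), 3 (Dhrs9, Fabp5 and Pdk4) and 1 (Meis2), beside 6.05%, 3.55% and 2.21% of all genes tested. DESeq2 on the 4 compared libraries called 3 (Lrat, Dhrs9 and Meis2), 1 (Dhrs9) and 2 (Sdr16c5 and Meis2), beside 4.33%, 2% and 2.26%. DESeq2 on all 6 libraries called 3 (Lrat, Dhrs9 and Meis2), 1 (Dhrs9) and 2 (Lrat and Meis2), beside 5.43%, 1.97% and 0.844%. Fabp5, Rarres1 and Pdk4, described below, and Stra6, Cdx1 and Stra8, which had no counts, were picked out after their values were seen. The median log2 fold change of the 34 was -0.016, -0.25 and -0.19.

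Among the uptake and storage genes of the list, 5 of 8 passed the filter. Stra6, the receptor for circulating retinol-binding protein, had 0 counts in every library. Lrat, which stores retinol as esters, had 501 counts in negative 2, 10 in nipple 1 and 0 in the other 4 libraries, so its calls rest on those libraries. Rbp7, a retinol-binding protein of the cell, was at 0.546 and 1.06 CPM in TEB 1 and 2. It was at 0.0491 and 0.188 CPM in nipple 1 and 2, where it had 1 and 4 counts. Its ratio of summed counts was 6.81 (95% exact counting interval 2.71 to 22.0). That interval covers counting error only and leaves out the spread between libraries. The fitted log2 difference of Rbp7 was 2.71 (standard error 1.89). Lpl, a lipase that frees retinoid from lipoproteins, was at 23.3 and 3.30 CPM in TEB 1 and 2 and at 1.72 and 1.32 CPM in nipple 1 and 2 (log2 difference 3.13, standard error 1.97). Neither was called by a tool, and each TEB library was above each nipple library.

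Of 12 other genes for the exchange of retinol and retinaldehyde, 11 passed. Dhrs9, a retinol dehydrogenase, had 3 and 2 counts in negative 1 and 2, 322 and 88 in TEB 1 and 2, and 60 and 619 in nipple 1 and 2. All 4 Gpr125+ libraries were above the Gpr125-negative pair. The ratio of summed counts, scaled by library size, was 113 (95% exact counting interval 48.1 to 351) for TEB-distal and 248 (106 to 766) for nipple-proximal cells, comparisons that share a reference of 5 counts in all. The intervals cover counting error only. Sdr16c5 had 227 counts in TEB 1, 14 in negative 1 and 0 elsewhere. Adh7, an alcohol dehydrogenase that acts on retinol and was picked out after its values were seen, was at 781 and 2.20 CPM in negative 1 and 2, 696 and 87.6 CPM in TEB 1 and 2, and 386 and 192 CPM in nipple 1 and 2. Like Aldh1a3, Adh7 was high in negative 1 and TEB 1 and low in negative 2, but it was not low in the nipple libraries.

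In the carrier group, Fabp5, which also binds retinoic acid, was at 125 and 15.0 CPM in negative 1 and 2, 7.95 and 11.1 CPM in TEB 1 and 2, and 15.1 and 9.60 CPM in nipple 1 and 2. Its log2 fold change was -2.88 (standard error 1.06) in TEB-distal and -2.51 (standard error 1.04) in nipple-proximal cells against the libraries labelled Gpr125-negative, of which negative 1 alone was far above the rest.

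Among the RXR partners of the RAR receptors, Rxra was at 68.3 and 10.03 CPM in negative 1 and 2, 11.4 and 12.5 CPM in TEB 1 and 2, and 32.0 and 16.8 CPM in nipple 1 and 2. Rxrb was at 91.6 and 40.2, 32.4 and 74.2, and 84.0 and 76.9 CPM in the same order. Both TEB libraries lay below both nipple libraries for each receptor, as for 18.3% of all genes tested, with log2 differences of -1.03 (standard error 0.98) and -0.59 (standard error 0.72). Rxrg had 20 counts in nipple 1 and 0 elsewhere. All 6 corepressors and coactivators of the list passed the filter, and 0 of them had an unadjusted p under 0.05 in any comparison by edgeR.

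Of 11 response genes, 8 passed. Meis2, a homeobox gene that retinoic acid induces in the limb, had 49 and 696 counts in negative 1 and 2, 0 in both TEB libraries, and 43 and 19 in nipple 1 and 2. Against a floor of 3 counts in each library it was at least 13.7-fold lower in TEB-distal than in nipple-proximal cells. Rarres1 had 73 counts in TEB 2, 13 and 8 in nipple 1 and 2 and 0 in the other 3 libraries. Pdk4, a kinase of the pyruvate dehydrogenase complex, was at 17.5 and 36.2, 31.7 and 30.1, and 70.6 and 94.5 CPM, highest in both nipple libraries (log2 fold change 1.62, standard error 0.68, against the libraries labelled Gpr125-negative). Cdx1 and Stra8, also targets, had 0 counts everywhere.

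The genes whose level over the 6 libraries was most like that of Aldh1a3 were, among tested genes with a proper symbol, Mutyh (Pearson r = 0.994 of log2 CPM), Glyat (0.985), Cyp24a1 (0.973), Erich1 (0.973) and Mal (0.970). Cyp24a1 degrades the active form of vitamin D. All but Erich1 had 0 counts in negative 2 and in both nipple libraries, and the highest level among those 4 was 13.6 CPM (Glyat in TEB 1). With 6 libraries and 17268 genes, 22 genes had an r over 0.95, and the points share depth and library composition.

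**Figure D5:**
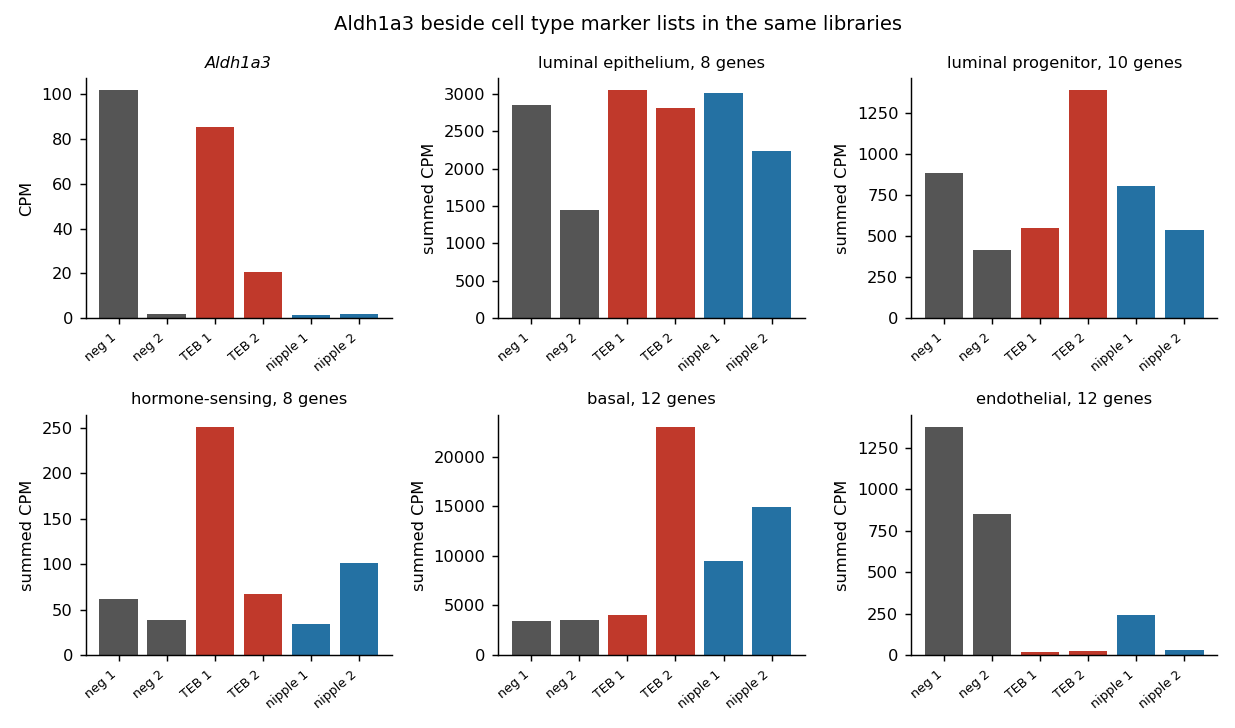
Aldh1a3 (CPM) beside the summed CPM of 5 cell type marker lists in the same 6 libraries, with grey, red and blue bars for Gpr125-negative, TEB-distal and nipple-proximal libraries and each axis starting at 0. No list has the order of Aldh1a3, which is above 20 CPM in negative 1 and both TEB libraries only; the luminal sum is lowest in negative 2 and the basal sum highest in TEB 2.

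Marker lists of epithelial cells varied between the libraries that differed in Aldh1a3, and their part in its level was not tested. The 8 luminal markers summed to 2842 and 1440 CPM in negative 1 and 2, 3050 and 2811 CPM in TEB 1 and 2, and 3002 and 2228 CPM in nipple 1 and 2. The 10 luminal progenitor markers, of which 7 to 10 had more than 3 counts, summed to 887 and 413, 548 and 1390, and 804 and 536 CPM in the same order. Members of this list differed widely in level. Lcn2 was at 145 to 787 CPM and Mfge8 at 93.2 to 584 CPM, and Ltf was at 222 CPM in negative 1. Elf5, a defining factor of that lineage, was at most 2.97 CPM and had 0 counts in 3 of the 6 libraries. Cxcl15 and Muc4 were at most 10.6 and 0.430 CPM. Hormone-sensing markers summed to 251 CPM in TEB 1 and to between 34.7 and 101 CPM in the others. Basal markers summed to 4017 CPM in TEB 1 and 23031 CPM in TEB 2, beside 9449 and 14952 CPM in the nipple libraries and 3393 and 3554 CPM in the libraries labelled Gpr125-negative. Among single luminal markers, picked out after their values were seen, Krt7 was at 106 and 11.4, 124 and 80.6, and 20.6 and 11.3 CPM, so that the 3 libraries above 20 CPM of Aldh1a3 were also the 3 highest in Krt7. That held for 2 of the 8 luminal markers, Krt7 and Cldn3, and for none of Krt8, Krt18, Krt19, Epcam, Cldn4 and Cldn7. Of the luminal progenitor markers it also held for Csn3 and Wfdc18. Wfdc18 was at 127 and 2.64, 23.4 and 3.47, and 1.08 and 1.69 CPM. It did not hold for Kit, Elf5, Cd14, Ltf, Lcn2, Mfge8, Cxcl15 or Muc4. Of the hormone-sensing markers it held for Foxa1 and Cited1, and not for Esr1, Pgr, Prlr, Areg, Prom1 or Tnfsf11. It was not limited to epithelial lists. Of the fibroblast markers it held for Pdgfra and Col1a1, at most 6.75 and 6.33 CPM, and not for Col1a2, Col3a1, Dcn, Lum, Dpt, Fbn1, Pi16 or Dpp4. How many of all tested genes share this split was not counted, so nothing is read from it. Fibroblast, leukocyte and pericyte lists were at most 193, 90.2 and 27.9 CPM in sum.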

How the data were processed

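The authors sequenced SMART-Seq HT libraries (full-length cDNA, no molecular identifiers), aligned reads to mm10 with STAR, used HTSeq (v0.6.0) with strand ignored to obtain gene counts, and deposited these raw counts by gene symbol. The paper gives STAR v2.5.0c and the submitters' processing notes 2.7.3. The annotation release is not given in the sources used here. Counts as deposited were fitted in R 4.3.3 with edgeR 4.0.16 (TMM, filterByExpr, robust quasi-likelihood test on all 6 libraries, prior count 2 for log2 CPM). DESeq2 1.42.0 was an alternative. Calls needed an FDR (Benjamini-Hochberg) under 0.1 and a 2-fold change, as in the study. No row named no gene.

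Groups come from the sample labels. Where nothing says that samples came from separate preparations, the spread may be technical. No replicate pair held like counts. Members and lists were chosen with earlier results of these data known. The rule for members names 10 genes, of which 1 is not reported here, nor are 2 genes of the pathway list as first drawn up. All members are named. From the list of 46, genes called by a tool, those with no overlap and a 4-fold difference between the Gpr125+ populations and all receptors are named, and the 5 genes most like Aldh1a3 by Pearson r. Genes outside this rule, those of the marker lists among them, were named after their values were seen. CPM per kb used exon lengths of GENCODE M21 (GRCm38), in which 96.4% of symbols were found; promoters are from RefSeq (GRCm38.p6). Scripts were tested on simulated data.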

Additional observations from a re-analysis of the deposited data

Results flagged for a closer look

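Rdh10 was above the Gpr125-negative mean in both TEB-distal libraries and below it in both nipple-proximal libraries, which is why it is listed here; at the level of single libraries, nipple-proximal replicate 2 (45.1 CPM) still exceeded Gpr125-negative replicate 1 (39.7 CPM). The Gpr125-negative mean is that of 2 unlike libraries, at 39.7 and 88.5 CPM. Only the 7 listed genes that passed the filter were checked for this split, and its share over all genes was not counted. Both TEB-distal libraries were above both nipple-proximal ones for 15.2% of all genes tested. For Rdh10 the log2 difference between the Gpr125+ populations was 1.36 (standard error 0.68). The gene was among those chosen with these values known, so the difference is given without a test.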

How the results depend on the processing

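All-gene calls for TEB-distal against Gpr125-negative, nipple-proximal against Gpr125-negative and TEB-distal against nipple-proximal cells, 0 each with edgeR, were 943, 321 and 133 with DESeq2 on all 6 libraries, 682, 317 and 357 with DESeq2 on the 4 compared libraries, and 137, 58 and 39 when every gene with at least 1 count was kept. Leaving out a library gave 0 to 747, 0 to 335 and 0 to 12. Listed retinoid genes called were 1, 1 and 1, then 0, 1 and 1, then 0, 1 and 1 under these 3 settings, and 0 with any library left out (Aldh1a3 in each, save Aldh1a2 for the first DESeq2 count). Other retinoid genes called were 3, 1 and 2, then 3, 1 and 2, then 3, 1 and 0, and 0 to 4, 0 to 1 and 0 with a library left out, where the lone sample of a group is assumed to vary like the others. The 747, the 335 and the 4 came without Gpr125-negative replicate 1. DESeq2 size factors, edgeR on 4 libraries and total-count scaling (added after the data were seen) called 0 throughout. With the replicate number as a block, 0 genes were called in each comparison and the median of the listed genes was 0.74, 0.30 and 0.03. Same-numbered libraries share only a number: their deviations correlated at -0.035, 0.194 and -0.0049 for the 3 pairs of groups. The median of the listed genes ranged from 0.0596 to 2.61, from -0.50 to 1.41 and from 0.26 to 1.13 with a library left out. Size factors and total counts moved the median of all genes to -0.17 and -0.23 (nipple-proximal against Gpr125-negative) and to 0.19 and 0.21 between the Gpr125+ populations. Of 272 alternative log2 fold changes of single listed genes, 20 changed sign, 5 of them with no library left out, and 1 became 0 (Aldh1a2, TEB-distal against Gpr125-negative without TEB-distal replicate 1, which leaves both groups at 0 counts). The cause was not tested. Low counts limit Cyp26b1, Rarb, Aldh1a1 and Aldh1a2, which had at most 122 counts in a library. For Aldh1a1 and Aldh1a2 the replicates also disagreed, with 0 and 41 and with 122 and 0 counts in TEB-distal replicates 1 and 2.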
